A study of Xenopus laevis with 79 samples.

Results

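The allotetraploid genome of *Xenopus laevis* carries 2 copies of znf703, a long-chromosome copy (znf703.L, the locus znf703.l) and a short-chromosome copy (znf703.S, the locus znf703.s). Both were followed here through every region and stage of the series, as 2 of the 45099 loci of the count table. They were picked because their levels in the neural plate and neural border were known to change between stage (St.) 12.5 and St. 14, so those levels and that change are given as a description with no test. Levels outside that change (undivided tissues, St. 17 tissues and whole embryos) were tested. So was the balance between the copies, which is built from counts of the same libraries. The copies were picked with earlier results of these data known, so these tests may not be fully independent of the choice.

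Znf703 belongs to the NET family of zinc finger proteins (Nlz in zebrafish), which repress transcription by recruiting the corepressor Groucho and histone deacetylases. In zebrafish, the nlz genes act in the segmentation of the hindbrain. In *Xenopus*, znf703 is a target of Pax3 and Zic1, the transcription factors that specify the neural border, and it is needed for hindbrain and neural crest formation. The neural border is the band of ectoderm between the neural plate and the nonneural ectoderm, and it gives rise to the neural crest and, in front, to the placodes.

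All embryos were wild type. Each of 63 libraries came from a region dissected from a single embryo, and 16 libraries from whole embryos (2 at each of 8 stages from St. 11-11.5 to St. 18-19). At St. 12.5 there were 22 libraries of 7 regions: anterior neural plate (NPa, n = 3), posterior neural plate (NPp, n = 3), preplacodal ectoderm together with the anterior neural border (ANB/PPE, n = 3), anterior, lateral and posterior neural border (NBa, n = 4; NBl, n = 3; NBp, n = 3) and nonneural ectoderm (NNE, n = 3). At St. 14 there were 29 libraries of 7 regions, namely NPa (n = 3), NPp (n = 4), preplacodal ectoderm together with the anterior neural fold (ANF/PPE, n = 5), NBa (n = 6), NBp (n = 5) and anterior and posterior nonneural ectoderm (NNEa and NNEp, n = 3 each), and 6 libraries of undivided neural plate (NP, n = 2) and neural border (NB, n = 4). Neural crest (NC, n = 4) and placode (Pc, n = 2) were taken at St. 17. The study picked dissections by a quantitative PCR for low myod1, a muscle gene, so low levels of it are a selection. The labels give a number of the dissected embryo, which several regions often share, and at St. 14 at times also replicates of a region (NPa replicates 1 and 2 both carry number 10). The study describes replicates as coming from separate embryos and clutches, so for those replicates the labels and the description differ, and whether a shared number there means a shared animal was not settled. Between 8898486 and 18468048 fragments were assigned to loci per library (median 13134905). Levels are CPM (fragment counts scaled to a common library total) with TMM factors, which correct that total for a few dominant loci by a trimmed mean.

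Some libraries stood apart from the others of their label. In St. 14 NPa replicates 1 and 3, otx2, the defining gene of forebrain and midbrain, was at 1.93 and 4.68 CPM, against 106 CPM in replicate 2. The summed level of 14 anterior neural loci was 8.24 and 9.84 CPM in those 2 libraries and 800.0 CPM in replicate 2, and that of 22 hindbrain loci was 1471 and 1462 CPM against 214 CPM. By these markers, 2 of the 3 libraries labelled St. 14 NPa went against their label. All 3 held the crest gene snai2 (384, 310 and 522 CPM), and their summed crest specifiers ranged from 996 to 1912 CPM, against 23.9 to 148 CPM in St. 14 NPp and 1743 to 3032 CPM in St. 14 NBa. The fitted anterior changes of the copies, and the calls and medians of the gene lists in that contrast, are given with and without replicates 1 and 3. Without them replicate 2 is the only St. 14 NPa library. Such fits assume that it varies like the other groups.

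At St. 12.5, both copies were near the floor of detection at the front of the plate and abundant behind it. In NPa, znf703.L was at 0.618, 0.232 and 0.818 CPM (6, 3 and 12 fragments), and in NBa at 17.7, 23.7, 46.4 and 40.9 CPM. The short copy was at 1.85, 2.63 and 1.91 CPM in NPa and at 26.1, 22.4, 52 and 46.9 CPM in NBa. Every NPa library lay below every NBa library for both copies, with group means of log2 CPM 5.51 lower for znf703.L and 3.94 lower for znf703.S (differences of -5.51 and -3.94); 7.9% of 18736 loci were likewise apart in 1 direction or the other. Within embryos 4, 5 and 7, from which both regions were cut, the NPa minus NBa difference was -4.53, -5.96 and -5.41 log2 units for znf703.L and -3.71, -3.02 and -4.51 for znf703.S.

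Behind this, no such step between plate and border was seen. In St. 12.5 NPp, znf703.L was at 42.5, 75.7 and 43.3 CPM and znf703.S at 66.5, 114 and 56.2 CPM. In NBp, znf703.L was at 25.7, 101 and 84.9 CPM and znf703.S at 44.6, 182 and 142 CPM. The plate and border libraries overlapped for both copies (11.2% of loci were apart), and in embryo 4 the plate was the higher and in embryos 5 and 7 the lower of the pair for both copies. Along the plate itself, every NPa library was below every NPp library, by 6.30 log2 units for znf703.L and 5.06 for znf703.S (NPa minus NPp, -6.30 and -5.06; 16.2% of loci were apart). Paraxial mesoderm markers, a list of 16 loci, summed to 0.232 to 1.24 CPM in NPa and 1.41 to 4.89 CPM in NBa, but to 30.3 to 586 CPM in NPp and 196 to 819 CPM in NBp, and their part in the posterior levels was not tested.

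The remaining St. 12.5 regions filled in the gradient. NBl was high in both copies (44.8, 82.8 and 61.0 CPM for znf703.L, 95.9, 130 and 98.7 CPM for znf703.S). NNE was at 29.4, 22.3 and 5.65 CPM for znf703.L and 35, 23.6 and 9.12 CPM for znf703.S. In ANB/PPE, the front rim of the border, znf703.L was at 0.488, 0.163 and 0.181 CPM (6, 2 and 2 fragments) while znf703.S was at 10.3, 5.61 and 4.80 CPM. Both were below every NBa library there (24.7% of loci were apart). Ranked by mean, znf703.L ran NBp, NBl, NPp, NBa, NNE, NPa, ANB/PPE, and in that order all neighbours had overlapping libraries except NNE and NPa. The order of znf703.S was the same but for its last places, where ANB/PPE stood above NPa with no overlap, and NPp and NBa did not overlap either. In znf703.S the highest ANB/PPE library (10.3 CPM) was above the lowest NNE library (9.12 CPM), so these 2 regions overlapped.

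**Figure D1:**
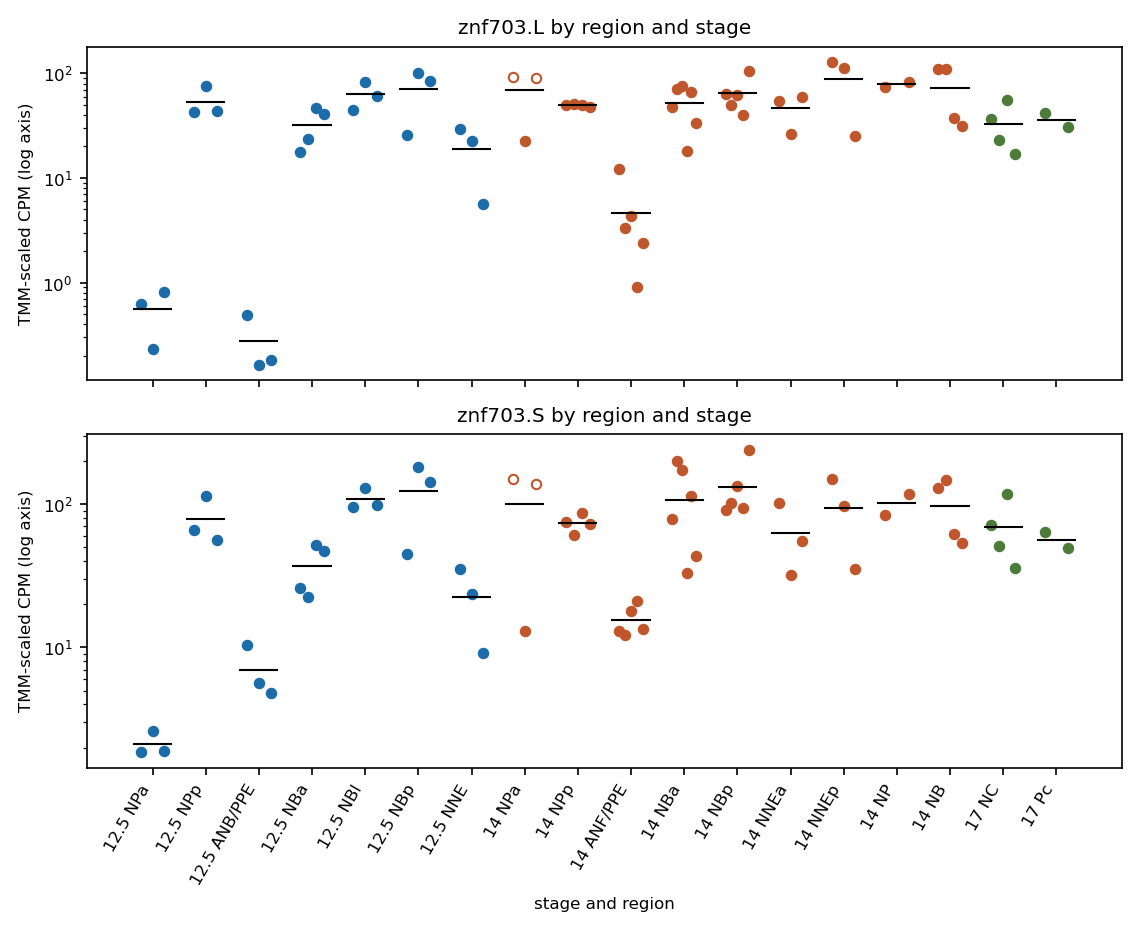
Level of znf703.L and znf703.S (TMM CPM, log axis) in each library of the dissected regions of all 3 stages, with black bars at the group means and open circles for the 2 St. 14 NPa libraries low in otx2. At St. 12.5 the means of NPa and ANB/PPE lie below those of the other regions, and at St. 14 only ANF/PPE remains below all others in mean. For znf703.S the St. 12.5 libraries of ANB/PPE and NNE overlap.

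By St. 14 the anterior plate no longer lay below the border in every library. In NPa, znf703.L was at 93.2, 22.4 and 90.8 CPM and znf703.S at 150, 13.1 and 138 CPM, where the middle value of each is replicate 2, the library that held otx2. In NBa, znf703.L was at 47.6, 71.6, 76, 18.1, 66 and 33.2 CPM and znf703.S at 78.1, 200, 173, 33, 115 and 43.1 CPM. The 3 NPa libraries overlapped those of NBa for both copies (11.3% of loci were apart), but replicate 2 alone was within the NBa range for znf703.L and below all 6 NBa libraries for znf703.S. They also overlapped the NPp libraries of St. 14 (21.5% of loci were apart), with replicates 1 and 3 above and replicate 2 below all 4 of them in both copies. All 3 NPa libraries, replicate 2 included, were above all 3 of St. 12.5 NPa, as 63.3% of loci were apart between these groups in 1 direction or the other.

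Landmark genes place these levels, though pax3, sox2 and myod1 were among the genes by which the study picked its dissections. The 2 pax3 loci, which mark the border, were at 0.515 to 55.6 and 1.54 to 34.8 CPM in St. 12.5 NPa and at 131 to 225 and 115 to 169 CPM in St. 14 NPa, against 218 to 413 and 102 to 329 CPM in St. 12.5 NBa. The neural plate gene sox2.1 was at 243 to 271 CPM in St. 12.5 NPa, 97.7 to 192 CPM in St. 14 NPa and 12.5 to 83.9 CPM in St. 14 NBa, so all 3 St. 14 NPa libraries were above the border in it. Neither myod1 locus passed 1.54 CPM in St. 14 NPa. Pax3, like both znf703 copies, was thus higher in every St. 14 NPa library than in any of St. 12.5 NPa, and the part of border cells in this was not tested.

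The change of the anterior plate minus border difference, fitted on the counts, was 6.2 ± 0.93 (SE) log2 units for znf703.L and 4.01 ± 0.81 for znf703.S. Without the 2 libraries low in otx2, which leaves replicate 2 alone in St. 14 NPa, it was 4.63 ± 1.0 and 1.10 ± 0.88. Of 23390 loci, 26 had a change past an adjusted p of 0.05 in edgeR's quasi-likelihood test (0.111%; 83 with the embryo as a block and 4 without the 2 libraries), and since this contrast chose the members nothing is read from their place in it. Within NPa the rise from St. 12.5 to St. 14 was 6.86 ± 0.85 log2 units for znf703.L and 5.5 ± 0.74 for znf703.S, or 5.30 ± 0.89 and 2.62 ± 0.74 without the 2 libraries. In NBa it was 0.66 ± 0.50 and 1.49 ± 0.50, and the libraries of the 2 stages overlapped (32% of loci were apart).

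Pairs with the same embryo number at St. 14 gave both patterns. In embryo 10, NPa replicate 1 differed from NBa by 0.38 log2 units for znf703.L and -0.41 for znf703.S, whereas NPa replicate 2 differed from the same NBa library by -1.67 and -3.91. In embryo 11, NPa replicate 3 differed from NBa by 0.26 and -0.32. Only the pair with replicate 2 showed a short-copy difference of the size seen within the St. 12.5 embryos (-4.51 to -3.02), and its long-copy difference was smaller than theirs (-5.96 to -4.53).

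**Figure D2:**
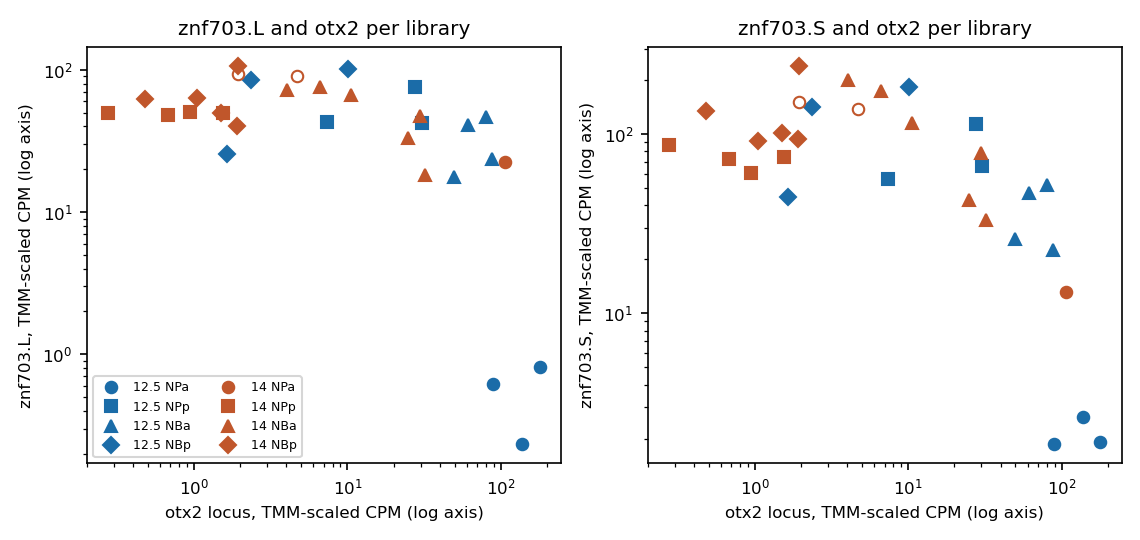
Level of each znf703 copy against that of otx2 (both TMM CPM, log axes) in the single libraries of anterior and posterior plate and border at St. 12.5 and St. 14, with open circles for the 2 St. 14 NPa libraries low in otx2. The third St. 14 NPa library holds otx2 at 106 CPM and the lowest level of both copies in its group, 22.4 CPM for znf703.L and 13.1 CPM for znf703.S.

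In the posterior plate and border the change was near 0. In St. 14 NPp, znf703.L was at 49.5, 50.5, 49.7 and 47.8 CPM and znf703.S at 74.7, 60.7, 86.7 and 72.5 CPM. In NBp, znf703.L was at 63.5, 49.7, 62.3, 40.0 and 106 CPM and znf703.S at 91.6, 101, 134, 93.4 and 240 CPM. The long copy overlapped between plate and border, while every NPp library of the short copy was below every NBp library (15.8% of loci were apart). The change of the posterior plate minus border difference was -0.04 ± 0.80 log2 units for znf703.L and -0.25 ± 0.77 for znf703.S, beside 66 loci called of 23390 (0.282%; 406 with the embryo as a block). In NPp and in NBp the libraries of the 2 stages overlapped for both copies, where 46.9% and 40.8% of loci were apart. Leaving out single libraries moved the count of called loci from 8 (without St. 12.5 NBp replicate 3) to 484 (without St. 12.5 NPp replicate 2), and nothing is read from it.

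The St. 14 pieces labelled nonneural were not free of the gene. NNEa held 54.9, 26.3 and 59 CPM of znf703.L and 102, 32.3 and 55.2 CPM of znf703.S. NNEp held 128, 112 and 25.1 CPM of znf703.L and 149, 96.8 and 35.3 CPM of znf703.S. In NNEa, the border gene zic1.S was at 124 to 232 CPM and the crest gene foxd3.L at 34.6 to 87.1 CPM. In NNEp they were at 1.06 to 5.84 and 0 to 0.513 CPM, and in NBa at 151 to 408 and 77.95 to 300 CPM. The part of border cells in the NNEa levels of znf703 was not tested. The highest group mean of znf703.L among all dissected regions was that of St. 14 NNEp (88.4 ± 55.4 CPM, SD, n = 3), and that of znf703.S was St. 14 NBp (132 ± 62.8 CPM, n = 5). The low region was ANF/PPE, at 12.3, 3.31, 4.30, 0.904 and 2.40 CPM for znf703.L and 13.0, 12.2, 17.9, 21.1 and 13.5 CPM for znf703.S, all below every NBa library (5.63% of loci were apart). St. 14 NPa replicate 2, the plate library that held otx2, lay within the ANF/PPE range for znf703.S (13.1 CPM) and above it for znf703.L (22.4 CPM). All 5 ANF/PPE libraries were nevertheless above the 3 ANB/PPE libraries of St. 12.5 in both copies (34% of loci were apart). At St. 14 every pair of neighbours in the order of means overlapped for either copy, with the exception of the step down to ANF/PPE.

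Genes known to act with or beside znf703 were counted in the same contrasts, from lists set up for this tissue with earlier results known. Of 43 posterior Wnt-responsive loci, 8 rose in the anterior plate relative to the border and 0 fell, where 26 of all 23390 loci (0.111%) were called. The median of the 43 was 3.25 log2 units, against -0.05 over all loci tested. In 6 of the 43 a whole group held 0 fragments, and with those groups set to a floor of 3 fragments the median was 2.63. Among the called loci was hoxd1.S, a Hox gene of the hindbrain (8.10 ± 1.40 log2 units, adjusted p = 0.00240 in edgeR and 0.0628 in limma-voom), at 0 to 0.613 CPM in St. 12.5 NPa and 7.19 to 98.3 CPM in St. 14 NPa. Without the 2 St. 14 NPa libraries low in otx2, hoxd1.S was at 4.94 ± 1.49 log2 units and no longer called (adjusted p = 0.596 in edgeR), and 2 of the 43 were called, named here after their values were seen: fzd10.S, a Wnt receptor, and msx2.L, a homeobox gene of the border. The list's median was then 1.8, and 4 of all 23334 loci were called. On all libraries, limma-voom called 3 of the 43, where 32 of all 23390 loci were called.

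The other lists described here gave no call in the anterior contrast, with or without the 2 libraries low in otx2. Of 20 hindbrain loci, 0 passed edgeR's adjusted test and 0 passed limma-voom's, with 6 higher at an unadjusted p under 0.05 in edgeR, a level that 7.01% of all 23390 loci reached in 1 direction or the other. Their median was 3.39 log2 units with all libraries, 2.06 with groups at 0 fragments set to the floor, and -2.39, of the opposite sign, without the 2 libraries low in otx2. The border inputs of znf703 (2 pax3 and 2 zic1 loci) had 0 of 4 called by either tool, 2 of them higher at an unadjusted p under 0.05. The pax3 estimates were 2.28 and 2.79, the zic1.L estimate 0.23 and the zic1.S estimate -1.04 log2 units. Without the 2 libraries low in otx2 they were 1.87 and 2.54 for pax3, -1.74 for zic1.L and -1.84 for zic1.S, with 1 higher and 2 lower at an unadjusted p under 0.05, and the median of the 4 moved from 1.25 to 0.06. Of 9 loci for Groucho and histone deacetylase corepressors, the partners of Znf703, 0 were called by either tool and 0 reached an unadjusted p under 0.05, with a median of 0.01, or 0.10 without the 2 libraries. Among 14 anterior neural loci 0 were called by either tool, with 1 lower at an unadjusted p under 0.05 in edgeR and 7 lower in limma-voom. Their median was -1.29 in edgeR, -4.43 in limma-voom and, of the opposite sign, 0.35 in edgeR without the 2 libraries. Among 13 crest specifiers 0 were called by either tool, with 2 higher at an unadjusted p under 0.05 in edgeR and 0 in limma-voom, and a median of 0.05 that was 0.11 without the 2 libraries. Among 9 retinoic acid loci 0 were called by either tool, with 4 higher and 1 lower at that level in edgeR, and a median of 0.50 that turned to -0.44 without the 2 libraries. Paraxial mesoderm markers had 0 of 16 called by either tool, 2 of them higher at that level, and a median of 3.11 that was 1.31 with groups at 0 fragments set to the floor and 1.97 without the 2 libraries.

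In the posterior contrast, 66 of all 23390 loci (0.282%) were called, with 164 in limma-voom and 406 of 23270 with the embryo as a block. Of the 43 Wnt-responsive loci, 2 rose in plate relative to border, msx2.S (4.29 log2 units) and msx2.L (3.79). Of these, limma-voom called msx2.S alone, and with the embryo as a block 1 of the 43 was called. Of the border inputs, zic1.S fell (-2.68), from 43.5 to 134 CPM in St. 12.5 NPp to 7.32 to 15.2 CPM in St. 14 NPp, beside 70.7 to 186 and 46.7 to 142 CPM in NBp, and with the embryo as a block 2 of these 4 loci fell. Without the 2 St. 14 NPa libraries, which are in the fit but not in this contrast, zic1.S was not called. Among 13 crest specifiers, foxd3.L (-6.05) and twist1.L fell in plate relative to border, while limma-voom called 0 of the 13 and edgeR with the embryo as a block called 6 lower. A single fragment of twist1.L was counted over the 3 St. 12.5 NBp libraries, so no size is given for it.

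The undivided tissues, which were not in the plate and border contrasts above, gave no difference that could be detected between plate and border. The 2 NP libraries held 74.1 and 82.9 CPM of znf703.L and 84.6 and 118 CPM of znf703.S. The 4 NB libraries held 109, 110, 37.2 and 31.1 CPM and 129, 146, 61.9 and 53.5 CPM. The difference NP minus NB was 0.10 ± 0.68 log2 units for znf703.L (adjusted p = 0.945 in edgeR) and 0.03 ± 0.67 for znf703.S (adjusted p = 0.987), where 15% of 22582 loci were called. The spread among the NB libraries exceeded the difference. Replicates 1 and 2, high in both copies, held 681 and 803 CPM of the posterior gene cdx4.L, and replicates 3 and 4 held 128 and 48.6 CPM. Whether cdx4.L and the copies go together over these 4 libraries was not tested. Both NP libraries carried another library name prefix than all 4 NB libraries, and with the prefix as a covariate across St. 14 the differences were -0.13 ± 0.87 and -0.05 ± 0.86. Mesoderm markers summed to 2344 CPM in NP replicate 2 and 244 CPM in replicate 1, and their part in these levels was not tested.

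At St. 17 the copies were present in both derivatives of the border. NC libraries held 36.8, 22.9, 55.8 and 16.9 CPM of znf703.L and Pc libraries 41.7 and 30.5 CPM. For znf703.S the levels were 71.9, 50.7, 118 and 35.8 CPM in NC and 63.6 and 49.1 CPM in Pc. Neither copy differed detectably between them (NC minus Pc, -0.00 ± 0.41 log2 units for znf703.L with an adjusted p of 0.997, and 0.42 ± 0.40 for znf703.S with an adjusted p of 0.461, in edgeR), where 31.7% of 20515 loci were called. All 13 crest specifiers and all 4 border inputs were called higher in NC in the same fit, with pax3 at 5.67 and 5.19, zic1.S at 5.45 and zic1.L at 3.23 log2 units above Pc. Against the undivided border of St. 14, NC was at -1.13 ± 0.56 log2 units for znf703.L (adjusted p = 0.130 in edgeR) and -0.51 ± 0.54 for znf703.S (adjusted p = 0.511), where 26.6% of 23254 loci were called. Of the 43 Wnt-responsive loci 24 fell and 1 rose between those tissues.

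Whole embryos carried both copies at every stage, in a range far narrower than that of the dissected regions. At St. 12.5 their means (96.9 CPM for znf703.L, 132 CPM for znf703.S) exceeded those of all dissected regions. The highest of these was NBp (70.6 and 123 CPM), whose libraries overlapped them. At St. 14 the whole-embryo means (61.1 and 89.8 CPM) did not exceed the highest means of dissected regions. These were 88.4 CPM in NNEp for znf703.L and 132 CPM in NBp for znf703.S. The part of tissues outside the dissected pieces was not tested. The long copy averaged 42 ± 1.09 CPM at St. 11-11.5 (SD, n = 2 at each stage), 70.03 ± 19.5 at St. 12, 96.9 ± 16.6 at St. 12.5 and 101 ± 1.23 at St. 13. From there it was at 61.1 ± 2.54 at St. 14, 84.8 ± 2.03 at St. 14-15, 79.9 ± 6.07 at St. 16-17 and 70.3 ± 0.488 at St. 18-19. The short copy rose likewise, from 65.4 ± 3.67 CPM at St. 11-11.5 to 132 ± 25.3 at St. 12.5 and 130 ± 10.3 at St. 13, and was at 84.8 ± 1.61 CPM at St. 18-19. Levels differed among the 8 stages in edgeR's joint test (adjusted p = 0.000824 for znf703.L and 0.00882 for znf703.S), as did those of 77.2% of 23274 loci. From St. 11-11.5 to St. 13, znf703.L rose by 1.17 ± 0.17 log2 units (adjusted p = 8.05e-05 in edgeR) and znf703.S by 0.89 ± 0.20 (adjusted p = 0.00165), with 63.2% of loci called, and both libraries of St. 13 were above both of St. 11-11.5. From St. 13 to St. 18-19, znf703.L fell by 0.56 ± 0.17 (adjusted p = 0.0394 in edgeR) and znf703.S fell by 0.66 ± 0.20 (adjusted p = 0.0376), with 16.9% of loci called. That last call lay near the threshold: leaving out either library of St. 13, St. 14, St. 16-17 or St. 18-19, or replicate 1 of St. 14-15, ended it for both copies (adjusted p from 0.0512 to 0.152), with estimates from -0.57 to -0.56 for znf703.L and from -0.73 to -0.58 for znf703.S. In bulk samples, fewer cells that hold a transcript and less transcript per cell cannot be told apart.

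**Figure D3:**
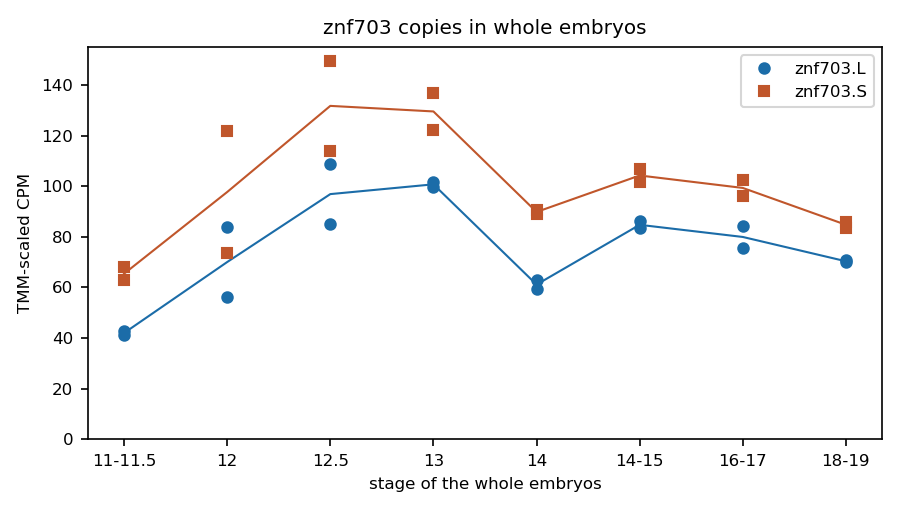
Level of each znf703 copy (TMM CPM) in the 16 whole-embryo libraries, 2 at each of 8 stages from St. 11-11.5 to St. 18-19, with lines joining the stage means. Both copies climb to St. 12.5 and St. 13 and are lower at St. 14 and after. The fall is not steady: the St. 14 means (61.1 CPM for znf703.L, 89.8 CPM for znf703.S) lie below those of St. 14-15 (84.8 and 104 CPM).

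The balance between the copies differed among regions. It is built from the same counts as the levels by which the copies were picked, so its tests may not be fully independent of that choice. Because the lengths of the copies and the share of fragments lost to multiple mapping are not known here, a share of L among the znf703 fragments is compared only across groups and does not say which copy is the more abundant. More fragments fell on S than on L in 75 of the 79 libraries. At St. 12.5 the share of L was 4.51%, 2.82% and 3.64% in ANB/PPE (10 of 259 fragments in all, 3.86%, exact binomial 95% interval 1.87 to 6.99%, counting error only) and 21.0 ± 11.5% in NPa (SD, n = 3; 21 of 101 fragments). It was 40.8 ± 2.39% in NPp, 46.4 ± 4.55% in NBa, 36.3 ± 3.9% in NBl, 36.6 ± 0.893% in NBp and 44.2 ± 5.34% in NNE. The log2 ratio of L to S differed among the 7 regions (adjusted p = 2.84e-07 in edgeR with each library as a block, over 5859 pairs of copies, of which 26.9% were called), and with the embryo as a block the adjusted p was 9.25e-07.

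At St. 14 the rim of the plate again held the lowest mean share, with a wide spread. In ANF/PPE it was 48.5%, 21.4%, 19.3%, 4.11% and 15.1%, in NPa 38.3%, 63.1% and 39.6%, where the second is the library that held otx2. The other regions ran from 33.3 ± 4.44% in NBp and 35.1 ± 5.96% in NBa, through 40.4 ± 3.73% in NPp and 43.8 ± 8.41% in NNEa, to 47.2 ± 6.06% in NNEp. The ratio differed among the 7 regions with an adjusted p of 0.0344 in edgeR (28.6% of 6082 pairs called). With the embryo number as a block, and libraries without a number left out, the adjusted p was 0.206 and the call was lost. In the main fit without the 2 NPa libraries low in otx2 the adjusted p was 0.0204. Leaving out any 1 of ANF/PPE replicates 2 to 5 or of NNEp replicates 1 and 2 also ended the call (adjusted p from 0.0517 to 0.0933), and without ANF/PPE replicate 1 it was 0.000625. Among whole-embryo stages the mean share ran from 39.1% at St. 11-11.5 to 45.3% at St. 18-19, and the ratio was not called to differ (adjusted p = 0.165 in edgeR, with 47% of pairs called).

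**Figure D4:**
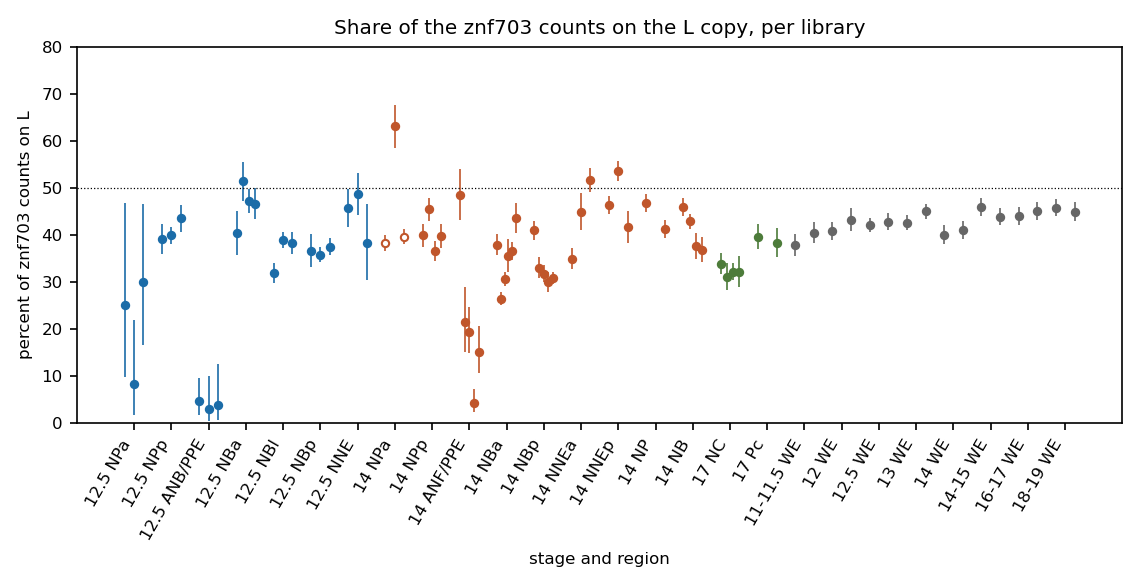
Share of znf703 fragments assigned to the L copy (percent) in each of the 79 libraries by stage and region, with exact 95% binomial intervals as error bars (counting error only), open circles for the 2 St. 14 NPa libraries low in otx2 and a dotted line at 50%. ANB/PPE at St. 12.5 lies at 2.82 to 4.51% and ANF/PPE at St. 14 spreads from 4.11 to 48.5%, whereas the other St. 14 regions have means from 33.3 to 47.2%.

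Across the means of the 18 dissected groups, the locus whose log2 CPM profile was most like that of either copy was the other copy (Pearson r = 0.949 over 14951 loci whose highest group mean reached 10 CPM). Loci close in profile to znf703.L included the Hox genes hoxb1.S (0.913) and hoxd1.S (0.911) and a locus annotated as meis3, a Hox cofactor (0.909). Those close to znf703.S included a locus annotated as dhcr7, an enzyme of cholesterol synthesis (0.933), hoxb1.S (0.898) and hoxd1.S (0.891). The front of the St. 12.5 plate was nearly empty of hoxb1.S too, which was at 0 to 0.273 CPM in NPa and 24.3 to 68.4 CPM in NBp. At the other end, a locus annotated as hesx1, an anterior neural plate gene, had the lowest r with znf703.L (-0.923), and gsc.S, an organizer gene, the lowest with znf703.S (-0.894). The 18 points share embryos and a common scaling, and a few groups near 0 carry much of r: by Spearman's rho the other copy still ranked 1st (0.891), but for znf703.L hoxd1.S ranked 83rd (0.723), hoxb1.S 411th (0.525) and the meis3 locus 434th (0.519). For znf703.S the dhcr7 locus ranked 3rd (0.876), hoxd1.S 12th (0.837) and hoxb1.S 237th (0.604). Without the 2 St. 14 NPa libraries low in otx2, the dhcr7 locus (0.928) stood just above the other copy (0.919) in likeness to znf703.S, and the other copy ranked 2nd for znf703.L as well.

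**Figure D5:**
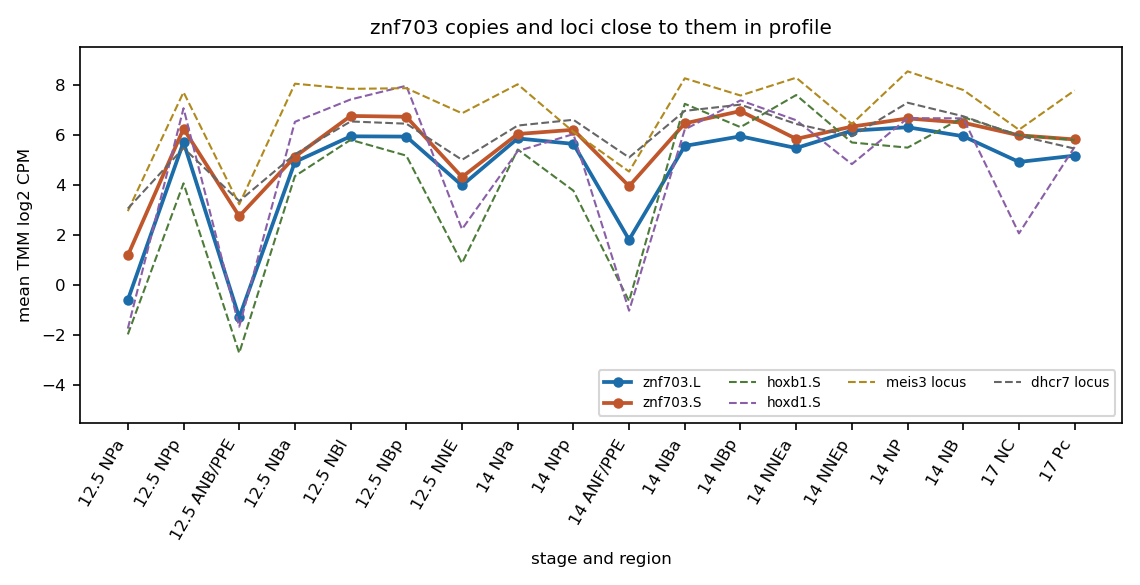
Mean log2 CPM in each of the 18 dissected groups for both znf703 copies (thick lines) and loci close to them in profile (dashed lines), by stage and region. For all of them, St. 12.5 NPa and ANB/PPE are the lowest groups of that stage, and ANF/PPE is the lowest of St. 14. The dhcr7 locus in St. 14 ANF/PPE (5.09) nevertheless lies above its St. 12.5 NNE level (4.99).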

How the data were processed

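Messenger RNA of 63 dissected regions and 16 whole embryos was sequenced as strand-specific paired-end libraries. Per the study's methods, the authors aligned fragments to the *X. laevis* 9.1 genome with TopHat 2.0.14, dropped pairs that mapped to several places, merged gene models, and counted fragments per locus with HTSeq. The deposited values are raw whole-number counts, which were used as deposited. Fragments shared by near-identical sequence of the L and S copies were therefore lost, which could shift the apparent balance between them. The 5 summary rows of the table, holding 15.67 to 25.51% of each library, were left out. The highest share was that of St. 14 NPa replicate 1, which is among the 2 libraries low in otx2.

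Levels are CPM with TMM factors over all 79 libraries (log2 CPM with a prior count of 2). Tests used edgeR 4.0.16 quasi-likelihood fits in R 4.3.3 on loci where 2 or more libraries exceeded 10 counts, with Benjamini-Hochberg adjustment over all loci tested and a threshold of 0.05. The SE of a fitted log2 difference was its size divided by the square root of its F value. The plate and border contrasts were fitted on the 51 libraries of separate regions. The L to S balance was fitted on pairs of copies, with each library as a block. Alternatives were median ratio size factors, no filter, DESeq2 1.42.0, limma-voom (limma 3.58.1), the library name prefix as a covariate, the compared groups alone, the embryo as a block, and leaving out each library. Leaving out the 2 St. 14 NPa libraries low in otx2 was chosen after seeing the data.

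The labels give the number of the dissected embryo. The main fits held no term for it. Same-numbered libraries were taken as 1 block only in the alternative with the embryo as a block, which left out libraries without a number. Replicates of a region that share a number at St. 14 go against the study's description of replicates as separate embryos. At St. 12.5, 21 libraries came from 3 numbered embryos, and residuals from region means correlated at a median r of 0.229 within and -0.108 between embryos. Taking residuals from region means of so few embryos itself pushes the value between embryos below 0, so nothing is read from its sign. At St. 14, 26 libraries of 6 embryos gave 0.0933 and -0.0170. Different clutches were used. The p-values of the main fits, and of every fit where no number is given, measure only the spread between libraries.

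The members and gene lists were chosen with earlier results of these data known. Named genes were both copies, the 5 loci most like each by r over 18 group means, up to 2 called loci per list and direction, and landmark loci; 1 gene that this rule names is not reported here. Names of loci without a symbol are those of the study's annotation. Both copies matched RefSeq symbols of assembly v10.1, which differs from the build of the files, so no coordinates are given. Tests were tried on simulated counts before use.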

Additional observations from a re-analysis of the deposited data

Results flagged for a closer look

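In St. 14 NBp, replicate 5 held 240 CPM of znf703.S, farther from the other 4 libraries of its group (91.6 to 134 CPM) than a fixed criterion for a stray value in a small group allows, and its znf703.L level was also the highest of the group (106 CPM). In the same group, replicate 1 had 40.9% of its znf703 fragments on L, apart from the other 4 libraries by the same criterion. Of 21 sets of values examined, these 2 stood out, and chance flags about 1 in 20 such sets.

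The L to S balance differed among the 7 regions of St. 12.5 (adjusted p = 2.84e-07 in edgeR), where the 3 ANB/PPE libraries had 2.82 to 4.51% of fragments on L and the 4 NBa libraries had 40.4 to 51.4%. It differed less firmly among the 7 regions of St. 14 (adjusted p = 0.0344 in edgeR), where the ANF/PPE libraries ran from 4.11 to 48.5%. Both tests use counts of libraries by which the copies were picked, so they may not be fully independent of that choice.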

How the results depend on the processing

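Counts in St. 12.5 NPa and ANB/PPE were 2 to 12 fragments of znf703.L per library, which limits the precision of each ratio that includes them. Without the 2 St. 14 NPa libraries low in otx2, a choice made after seeing the data, the anterior change moved to 4.63 (znf703.L) and 1.10 (znf703.S). Under the other alternatives tried it lay between 5.69 and 6.28 for znf703.L and between 3.48 and 4.05 for znf703.S, and with single libraries left out between 5.81 and 6.64 and between 3.57 and 4.53. The posterior change lay between -0.13 and 0.24 and between -0.34 and 0.08, and with single libraries left out between -0.38 and 0.35 and between -0.64 and 0.14.

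Loci called in the anterior contrast numbered 26, but 139 in DESeq2, 40 with the prefix covariate, 83 with the embryo block, 4 without the 2 libraries and 6 to 52 with single libraries left out. In the posterior contrast they numbered 66, but 367 in DESeq2, 164 in limma-voom, 406 with the block and 8 to 484 with single libraries left out. Between undivided NP and NB they numbered 3391, but 1309 with the prefix covariate, 1734 with the compared groups alone and 336 to 3540 with single libraries left out. Loci called on the gene lists fell in limma-voom to 3 in the anterior and 2 in the posterior contrast, and in the anterior contrast to 2 without the 2 libraries. With the embryo as a block, added after seeing the data, they numbered 11 in the anterior and 12, against 5, in the posterior contrast.

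The libraries carry embryo numbers only for the separate regions of St. 12.5 and St. 14. With the embryo number as a block, the balance at St. 14 was no longer called (adjusted p = 0.206), and that at St. 12.5 was. Several untested changes turned sign under it, each with an SE larger than the value: the stage change within NPp from -0.22 to 0.27 log2 units (znf703.L), that within NBp from -0.17 to 0.03 (znf703.L) and from 0.06 to -0.72 (znf703.S), and the posterior change from -0.04 to 0.24 (znf703.L) and from -0.25 to 0.08 (znf703.S). For undivided NP and NB, NC, Pc and whole embryos no paired analysis was possible, because they have no embryo numbers.

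With single libraries left out, the adjusted p of the St. 14 balance ran from 0.000625 to 0.0933 and that of the late whole-embryo change from 0.00943 to 0.151 (znf703.L) and from 0.00577 to 0.152 (znf703.S), with values from -0.57 to -0.56 and from -0.73 to -0.58. Leaving 1 library in an arm assumes that it varies like the other groups. Of 52 group levels, 43 moved by less than 1 SD between TMM and median ratio size factors. The cause of these shifts was not tested. The other tested results of the copies kept their side of the threshold in each alternative run.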
